A study of Mus musculus with 24 samples.

Results

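The response of the tongue to SN-011, an antagonist of the DNA-sensing adaptor STING, was set against the response of the stomach in *Trex1*-KO mice. All samples with the tissue label tongue or stomach were taken, 12 of the 24 samples of the series, in 4 groups of 3. All mice, controls included, carried the *Trex1* knockout in the whole animal, so there was no wild-type reference. Per the labels, the treated mice received SN-011 at 5 mg/kg, 3 doses a week over 4 weeks, and the control mice were untreated. The methods of the study describe a vehicle control and a daily, larger dose over a shorter time, so the schedule is uncertain, whereas tissue and treatment are the same in both sources. The quantity compared, called the interaction below, was the log2 fold change of SN-011 against control in the tongue minus that in the stomach. A negative interaction means that a gene was lower after SN-011 in the tongue, relative to its control, than in the stomach.

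TREX1 is an exonuclease that degrades DNA in the cytosol. Without it, self DNA activates the sensor cGAS, whose product cGAMP binds STING, and STING then induces type I interferon, interferon-stimulated genes and inflammatory cytokines. SN-011 occupies the pocket of STING that binds cyclic dinucleotides. The tongue is striated muscle under a keratinised stratified squamous epithelium. The mouse stomach joins a forestomach lined by squamous epithelium to a glandular part that makes acid, mucus and pepsinogen, with a wall of smooth muscle.

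Total counts lay between 14569890 and 17268835 per sample, and 20465 to 23253 genes had at least 1 count. The skeletal muscle myosin *Myh4* was at 5664 to 9164 CPM (a gene's share of the library's counts after TMM scaling, as edgeR gives it) in the tongue samples and at 0 in the stomach samples, and the gastric mucosal protein gene *Gkn2* was at 1247 to 39810 CPM in the stomach. No sample had a count for *Trex1*, which shares its locus with *Atrip*, so this does not check the genotype. Control replicate 1 of both tissues was female by *Xist* and *Ddx3y*, and the other 10 samples were male. Tongue control replicates 2 and 3 stood apart from the other tongue samples because they held gastric transcripts. The summed abundance of 21 gastric gland secretory genes was 3701 and 2804 CPM in these libraries, against 83.0 in tongue control 1 and 40.0 to 73.8 in the SN-011 tongues. The same libraries had 15700 and 27090 CPM of cornified envelope genes, against 2279 to 5904 in the other tongue samples. Among the tongue samples, the sum of the neutrophil markers was high in control 3 alone, through *S100a9* and *S100a8* (200 and 162 CPM). *Csf3r* of the same list was not higher there, at 5.94 CPM against 8.99 and 9.22 CPM in tongue controls 1 and 2. Among the stomach samples, control 2 had the lowest sum of smooth muscle genes, 2338 CPM against 4557 to 18500 in the others. Gene lists and genes that moved with these libraries are given with and without tongue controls 2 and 3. Without both, the female tongue control 1 is the only tongue control, so such values rest on 1 control library.

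**Figure D1:**
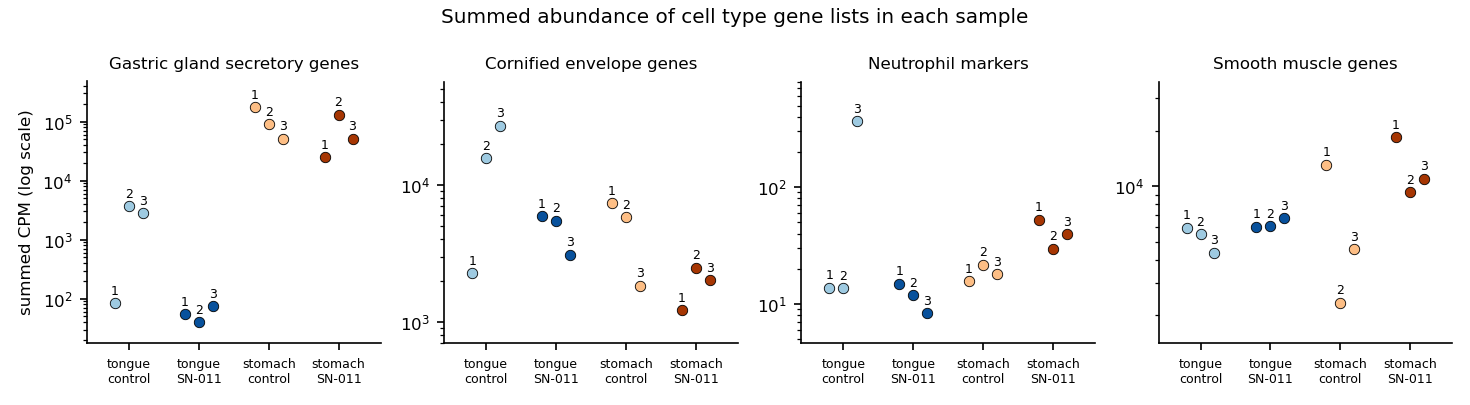
Summed CPM, on a log scale, of 4 cell type gene lists in each of the 12 samples, with the replicate number above each point. Tongue controls 2 and 3 hold 3701 and 2804 CPM of gastric gland genes, and tongue control 3 holds 369 CPM of neutrophil markers against at most 14.9 in the other tongue samples. Of these 369 CPM, *S100a9* and *S100a8* hold 200 and 162 CPM.

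Of 18644 genes tested, 1 differed between the tissues in its response to SN-011 at an adjusted p under 0.05 (edgeR quasi-likelihood test with Benjamini-Hochberg adjustment, 0.00536% of genes). This gene was *Atg9b*, with a negative interaction. Before adjustment, 2939 genes (15.8%) had an interaction with p under 0.05, 1131 positive (6.07%) and 1808 negative (9.7%). In the same fit, SN-011 changed 2270 genes in the stomach, of which 1209 were higher (6.48%) and 1061 lower (5.69%). In the tongue it changed 1 gene (0.00536%), *Gm7993*, a predicted gene annotated as a processed pseudogene. It is named although the naming rule leaves such genes out, and whether its reads are its own was not tested. At an unadjusted p under 0.05, 445 genes were higher (2.39%) and 1035 lower (5.55%) in the tongue. The 2 tissues share one estimate of the spread in this fit, and with each tissue fitted alone the adjusted count was 0 in the stomach, with 4183 genes at an unadjusted p under 0.05, and 0 in the tongue, with 2074. A change in the stomach that is stated below to pass the threshold does so in the shared fit only.

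The number of genes with an interaction depended on single libraries. It was 239 without tongue control 1, 126 without stomach SN-011 2 and 117 without stomach control 1, and it was 1 without stomach control 2 and 0 without any one of the other 8 libraries. Most of these genes had a negative interaction (229, 95 and 113). Without tongue controls 2 and 3 it was 0, with 2501 genes at an unadjusted p under 0.05. In the stomach the count of 2270 was 244 without SN-011 replicate 1, 299 without SN-011 replicate 3 and 881 without control 2, and it was 1253 to 1512 without tongue SN-011 1, 2 or 3 or tongue control 2. In the tongue, 370 genes passed without control 1, and 0 without tongue SN-011 1 or 3 or stomach SN-011 2 (1267, 874 and 1582 at an unadjusted p under 0.05). Interactions at an unadjusted p under 0.05 moved as well. With one library left out, 744 to 1781 of all genes were positive and 1209 to 2163 negative. In either direction they numbered 3868 without stomach control 3 and 3902 without stomach SN-011 2, against 2939. Counts of the gene lists with one library left out are to be read beside these.

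**Figure D2:**
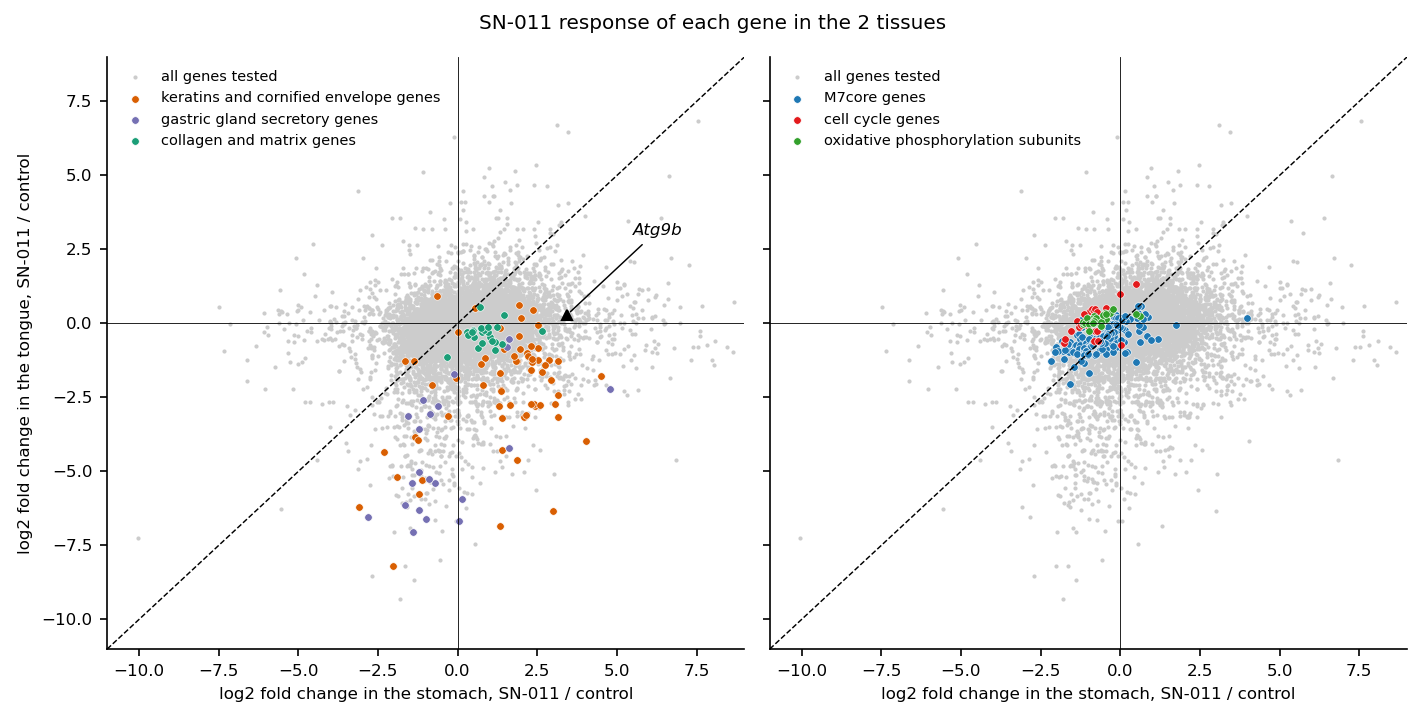
log2 fold change of SN-011 against control in the stomach (x axis) and in the tongue (y axis) for the 18644 genes tested (grey), with gene lists in colour and equal responses on the dashed line. Keratins, cornified envelope genes and collagen genes lie mostly to the right of zero and below the line, M7core genes lie mostly below zero in both tissues, and *Atg9b* (triangle) stands at 3.44 in the stomach and 0.30 in the tongue.

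*Atg9b* encodes one of the 2 mammalian ATG9 proteins, membrane proteins that supply lipid to the growing autophagosome. It lies on chromosome 5 of GRCm38 from 24384181 to 24392143, on the minus strand. In the tongue it stood at 198, 191 and 241 CPM in the controls and at 262, 273 and 238 CPM after SN-011. In the stomach it stood at 2.22, 3.94 and 1.93 CPM in the controls and at 34.9, 25.9 and 27.5 CPM after SN-011. The stomach groups lay far apart, with every SN-011 sample above every control, while the tongue groups overlapped. The log2 fold change was 3.44 in the stomach (adjusted p = 0.000548) and 0.30 in the tongue (unadjusted p = 0.242), and the interaction was −3.14 ± 0.36 (SE, adjusted p = 0.027 from edgeR). Leaving out one library at a time kept the direction and ended the call for 8 of the 12, namely tongue controls 2 and 3, each tongue SN-011 sample, stomach control 3 and stomach SN-011 1 and 3 (adjusted p 0.0601 to 0.214 from edgeR), and without tongue controls 2 and 3 together the interaction was −3.08 (adjusted p = 0.192).

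The 3′ end of *Atg9b* overlaps *Nos3*, the endothelial nitric oxide synthase gene on the opposite strand, and the strand setting of the counting is not given in the sources used here. *Nos3* stood at 1.23, 1.56 and 2.14 CPM in the stomach controls and at 10.7, 6.63 and 6.09 CPM after SN-011, and at 9.68 to 27.6 CPM in the tongue. It rose in the stomach (log2 fold change 2.23, adjusted p = 0.014 from edgeR) and had an interaction of −2.13 ± 0.59 (adjusted p = 0.161). Both genes were higher in the SN-011 stomachs and overlapped between treatments in the tongue, and how far their reads are mixed was not tested.

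**Figure D3:**
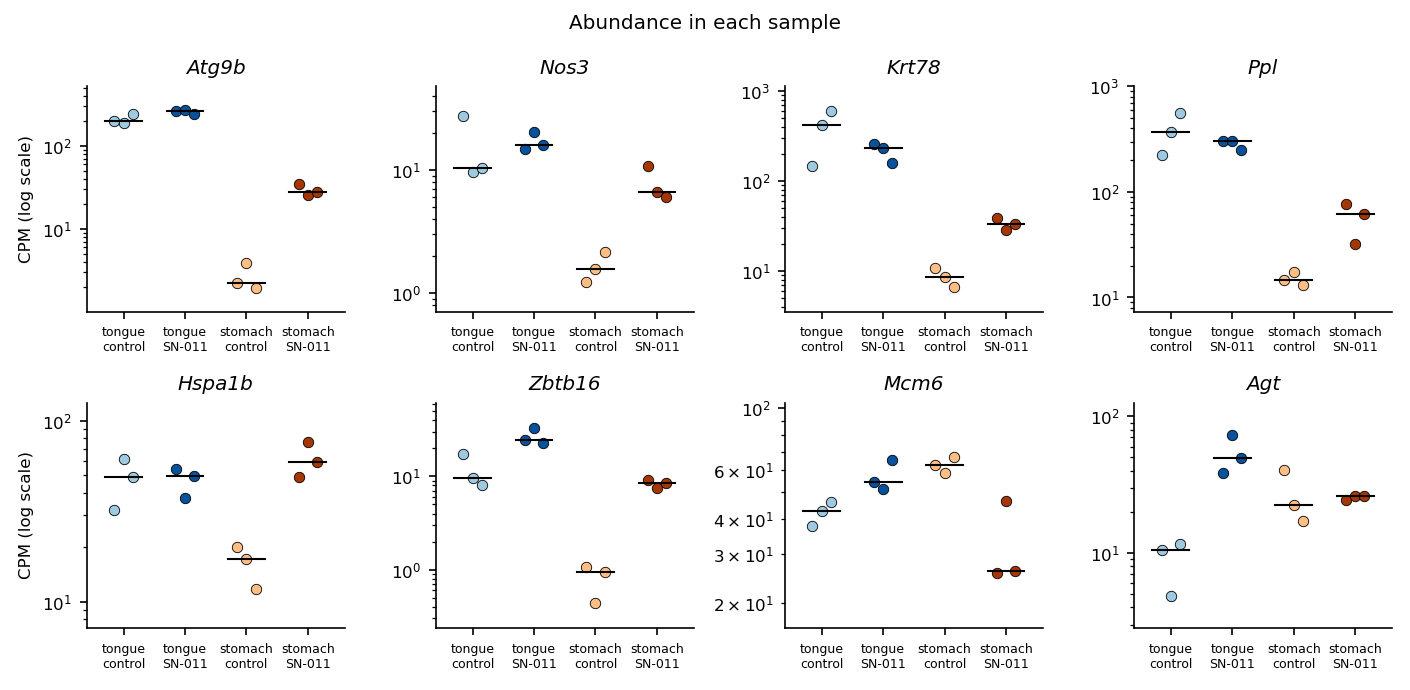
CPM, on a log scale, of 8 genes in each sample (points) with the group median (line). *Atg9b*, *Nos3*, *Krt78*, *Ppl*, *Hspa1b* and *Zbtb16* were higher in all 3 SN-011 stomachs than in the 3 control stomachs, *Mcm6* was lower in all 3, and *Agt* separated the treatments in the tongue alone.

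Genes of stratified squamous epithelium were mostly on the negative side. Of 24 keratin genes tested, 14 had a negative interaction at an unadjusted p under 0.05 and 0 a positive one, beside 9.7% and 6.07% of all genes. Their median log2 fold change was −1.26 in the tongue and 1.89 in the stomach, beside −0.0061 and 0.0092 over all genes. The basal keratins *Krt5* and *Krt14*, which form the filaments of dividing squamous cells, rose in the stomach. *Krt14* stood at 96.0, 66.4 and 36.7 CPM in the control stomachs and at 645, 127 and 368 CPM after SN-011 (log2 fold change 2.52, adjusted p = 0.0176 from edgeR), and in the tongue at 3492 to 5414 CPM in the controls and 3796 to 4826 CPM after SN-011. The stomach groups of *Krt14* did not overlap and its tongue groups did, with an interaction of −2.56. *Krt5* was at 2997 to 3853 CPM in the control tongues and 4378 to 5225 CPM after SN-011, higher in all 3 SN-011 samples (unadjusted p = 0.337 from edgeR), and its interaction was −1.91. *Krt78*, a keratin of differentiating squamous layers, stood at 10.7, 8.56 and 6.63 CPM in the control stomachs and at 39.3, 28.6 and 33.1 CPM after SN-011, and at 147 to 606 CPM in the tongue, with overlapping groups (interaction −2.83 ± 0.59, adjusted p = 0.121 from edgeR). *Krt17*, which marks activated keratinocytes, had an interaction of −3.35, *Krt13*, the main keratin of the suprabasal oral layers, of −3.31, and *Krt10*, the keratin of cornifying layers, of −3.62.

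Keratins of simple epithelium had lower means in the SN-011 stomachs. *Krt8* was at a mean of 4911 CPM in the control stomachs and 2065 CPM after SN-011, and *Krt19* at 5265 and 2089 CPM, neither past the threshold (adjusted p = 0.405 and 0.324 from edgeR). They are abundant in the stomach, and the summed keratin level was 6806 to 18840 CPM in the control stomachs and 3436 to 9235 CPM after SN-011, opposite in sign to the median.

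The cornified envelope is the cross-linked protein shell of dead squamous cells, made of loricrin, small proline-rich and late cornified envelope proteins joined by transglutaminases. Of 41 listed genes 40 were tested, with medians of −2.72 in the tongue and 1.85 in the stomach. At an unadjusted p under 0.05, 30 had a negative interaction and 0 a positive one, beside 9.7% and 6.07% of all genes. *Ppl*, which encodes the plaque protein periplakin, stood at 14.5, 17.2 and 13.2 CPM in the control stomachs and at 77.6, 32.2 and 61.3 CPM after SN-011 (log2 fold change 1.93, adjusted p = 0.012), with an interaction of −2.34 ± 0.50 (adjusted p = 0.124, both from edgeR). *Tgm1*, the transglutaminase that cross-links the envelope, stood at 3.13, 3.69 and 1.36 CPM in the control stomachs and at 17.9, 7.73 and 10.9 CPM after SN-011, with an interaction of −3.18. In both genes all SN-011 stomachs lay above all control stomachs. *Dmkn* and *Hrnr*, which encode secreted and granule proteins of the upper epidermis, had interactions of −3.86 and −4.11. In this list too the sum had the other sign in the stomach (1839 to 7329 CPM in controls, 1221 to 2485 CPM after SN-011). *Sprr2a1*, *Sprr2a2* and *Sprr2a3*, small proline-rich genes whose near-identical copies may share reads, had means of 877, 1654 and 2009 CPM in the control stomachs and 234, 407 and 403 CPM after SN-011, with an adjusted p of 0.268, 0.271 and 0.168 (edgeR).

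In the tongue, the squamous genes were high in the 2 libraries that also held gastric transcripts. The tongue marker *Krt36* stood at 128, 1014 and 1050 CPM in the tongue controls. *Krt84* stood there at 60.9, 762 and 888 CPM, and *Krt76* at 115, 1217 and 1236 CPM. None of these 3 keratins was above 0.0625 CPM in a control stomach. The source of the difference between the tongue controls was not tested. *Lor*, which encodes loricrin, stood at 176, 3586 and 7212 CPM in the tongue controls and at 675, 625 and 352 CPM after SN-011, so that tongue controls 2 and 3 were above, and tongue control 1 below, every SN-011 tongue. In the stomach it stood at 13.4, 48.8 and 9.56 CPM in the controls and at 167, 100.3 and 114 CPM after SN-011, without overlap. Its interaction was −5.14, and −0.77 without tongue controls 2 and 3. Without tongue control 1 alone, 229 of all 19426 genes had a negative interaction at an adjusted p under 0.05 (edgeR). Among them were 23 cornified envelope genes and 9 keratins. Without tongue controls 2 and 3 the median log2 fold change of the cornified envelope genes in the tongue was 1.31 and their median interaction moved from −3.99 to −0.43, with 2 genes negative and 3 positive at an unadjusted p under 0.05. For the keratins the tongue median became 0.82 and the interaction moved from −2.62 to −0.62, with 4 negative and 1 positive. The interactions of *Ppl*, *Tgm1*, *Krt78* and *Krt14* kept their sign, at −1.57, −1.92, −1.43 and −2.23. Those of *Krt17*, *Krt13*, *Dmkn*, *Hrnr* and *Krt10* moved further, to −1.70, −1.12, −1.41, −1.12 and −0.45. Fewer squamous cells and less RNA per squamous cell cannot be told apart in bulk tissue, nor can a change in the share of forestomach that was sampled.

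The gastric gland secretory genes showed the same libraries. Of 21 genes tested, 16 had a negative interaction and 0 a positive one at an unadjusted p under 0.05, beside 9.7% and 6.07% of all genes. The medians of the list were −5.01 in the tongue and −0.89 in the stomach. *Gkn2* stood at 10.2, 560 and 669 CPM in the tongue controls and at 1.69, 2.15 and 5.47 CPM after SN-011. *Atp4a*, the catalytic subunit of the proton pump of parietal cells, stood at 0.843, 261 and 78.9 CPM and at 1.38, 0.130 and 1.93 CPM. Tongue controls 2 and 3 carried these differences, and tongue control 1 lay near the treated samples. Without the 2 libraries the median interaction was 0.053, and the sign of *Atp4a* (−5.63), *Gkn1* (−4.51) and *Muc6* (−5.82) turned, whereas *Gkn2* (−5.66) moved to −0.36 and *Muc5ac*, the mucin of surface cells (−4.69), to −2.69. Of 13 gastric endocrine genes, 4 had a negative interaction at an unadjusted p under 0.05, beside 9.7% of all genes. Among them were *Ghrl* (−3.79), which encodes ghrelin, and *Chga* (−3.38), which encodes chromogranin A. Both followed the same 2 libraries, at −1.20 and −0.61 without them. *Aqp4*, a water channel of parietal cells and of muscle fibres, stood at 4.38, 7.45 and 6.50 CPM in the tongue controls and at 0.602, 1.04 and 0.995 CPM after SN-011. It was lower in all 3 SN-011 tongues, and its interaction of −2.16 was −1.70 without tongue controls 2 and 3.

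M7core is the study's STING-dependent set, the members of its expression module 7 that are targets of an interferon regulatory factor and that were induced by a DNA ligand of cGAS, and all 159 genes matched here were tested. Their median log2 fold change was −0.50 in the tongue and −0.64 in the stomach, and 122 of the 159 were negative in both tissues, against 5569 of all 18644 genes. The median interaction was 0.19, beside −0.046 over all genes, and 104 interactions were positive and 55 negative, beside 8863 and 9781 over all genes. Of the M7core genes, 11 had a positive and 6 a negative interaction at an unadjusted p under 0.05, beside 6.07% and 9.7% of all genes. In the stomach 46 passed the threshold as lower and 3 as higher, beside 5.69% and 6.48% of all genes. In the tongue 0 passed, and 54 were lower at an unadjusted p under 0.05, beside 5.55% of all genes. The median interaction was 0.094 to 0.32 when one library was left out and 0.30 without tongue controls 2 and 3, where 16 genes were positive and 3 negative. The counts were 7 positive without tongue SN-011 3, and 17 positive and 11 negative without stomach control 3.

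The interferon-stimulated response element, the DNA site of the interferon-activated factor complex, marks the promoters of many interferon-stimulated genes. It was not counted over the M7core list. The stretches below, from RefSeq promoters on GRCm38.p6 and written on the gene's strand, show the letters GAAA, any 2 bases and GAAA, or their reverse complement, in capitals for 4 genes whose values follow.
*Rsad2* (chr12:26456533-26456602, minus strand): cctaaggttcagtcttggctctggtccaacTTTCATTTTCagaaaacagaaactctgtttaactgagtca
*Isg15* (chr4:156200845-156200926, minus strand): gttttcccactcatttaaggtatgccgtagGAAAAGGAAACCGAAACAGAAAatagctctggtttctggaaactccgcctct
*Ifit3* (chr19:34583343-34583446, plus strand): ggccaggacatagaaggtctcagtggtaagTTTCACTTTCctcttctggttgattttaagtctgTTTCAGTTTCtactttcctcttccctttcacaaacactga
*Cxcl10* (chr5:92349063-92349132, minus strand): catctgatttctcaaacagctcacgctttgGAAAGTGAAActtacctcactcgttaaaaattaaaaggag
The letters, on either strand, occurred 3 times with overlap in *Isg15* and 2 times in *Ifit3*. They were in 14 of the 22 antiviral effector genes and 10 of the 11 interferon-induced GTPase genes with a promoter window of 300 bases, and in 3.99% of all 27025 genes with a window.

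The 29 tested antiviral effectors had a median log2 fold change of −0.67 in the tongue and −1.03 in the stomach. Of them, 28 were negative in both tissues, against 5569 of all 18644 genes. In the stomach 17 fell past the threshold, beside 5.69% of all genes. In the tongue 17 were lower at an unadjusted p under 0.05, beside 5.55% of all genes. By the same measure 3 had a positive interaction, beside 6.07% of all genes. The interaction was positive in 21 and negative in 8 of the 29. *Rsad2*, which encodes viperin, an enzyme that makes a chain-terminating nucleotide, stood at 160, 181 and 167 CPM in the tongue controls and at 88.5, 75.3 and 101 CPM after SN-011, and at 101, 118 and 118 CPM in the stomach controls and 26.5, 30.3 and 40.4 CPM after SN-011. Controls and treated samples did not overlap in either tissue. Its log2 fold changes were −0.94 (tongue) and −1.79 (stomach), with an interaction of 0.86 ± 0.28 (adjusted p = 0.197 from edgeR). The count of 3 was 5 without stomach control 3 or without tongue controls 2 and 3, and 6 without stomach SN-011 3. *Cmpk2*, the mitochondrial nucleotide kinase that neighbours *Rsad2*, had an interaction of 1.22, and *Usp18*, which removes ISG15 from proteins and dampens interferon signalling, of 0.96.

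**Figure D4:**
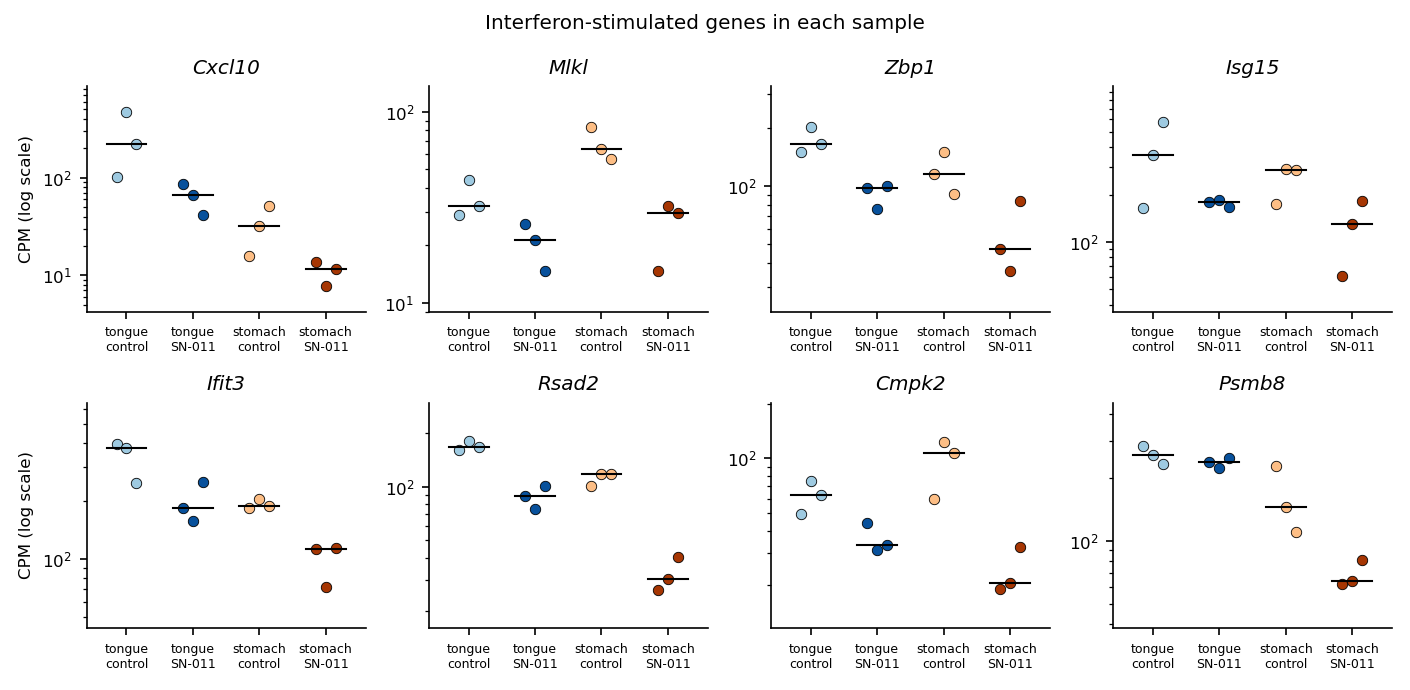
CPM, on a log scale, of 8 interferon-stimulated genes in each sample (points) with the group median (line). In *Rsad2* the 3 SN-011 samples lie below the 3 controls in both tissues, and in *Psmb8* they do so in the stomach, where they stand at 61.8 to 81.2 CPM against 110 to 227 CPM.

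*Cxcl10*, *Mlkl*, *Zbp1*, *Isg15* and *Ifit3* were followed by name, and none had an interaction past the threshold. *Cxcl10*, which encodes a chemokine for T cells and NK cells, stood at 102, 472 and 221 CPM in the tongue controls and at 86.6, 65.8 and 41.9 CPM after SN-011, and at 15.9, 32.3 and 51.0 CPM in the stomach controls and 13.7, 7.80 and 11.6 CPM after SN-011. The SN-011 samples were the lower ones in both tissues, without overlap. Its interaction was −0.45 ± 0.74. *Mlkl*, the pore-forming effector of necroptosis, stood at 83.5, 63.9 and 56.7 CPM in the stomach controls and at 14.7, 32.2 and 29.4 CPM after SN-011 (log2 fold change −1.42, adjusted p = 0.019 from edgeR), and at 29.0 to 43.7 CPM and 14.7 to 25.8 CPM in the tongue, an interaction of 0.66 ± 0.44. *Zbp1*, a sensor of nucleic acids in the Z form, fell in the stomach (log2 fold change −1.08, adjusted p = 0.0389 from edgeR), with an interaction of 0.17 ± 0.42. *Ifit3*, which binds viral RNA within the IFIT complex, had an interaction of 0.16 ± 0.37, and *Isg15*, the ubiquitin-like modifier, of −0.035 ± 0.63. The sign of the interaction turned in some alternatives for *Cxcl10*, *Zbp1*, *Ifit3* and *Isg15*.

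The 19 interferon-induced GTPases, which attack the membranes around intracellular pathogens, had medians of −1.04 in the tongue and −1.08 in the stomach. *Irgm1* fell in the stomach (log2 fold change −1.60, adjusted p = 0.00876 from edgeR) with an interaction of 0.65. *Gbp5* was the only member of the 19 with an interaction at an unadjusted p under 0.05 (−1.28), beside 9.7% of all genes with a negative one. It stood at 45.5, 91.1 and 51.6 CPM in the tongue controls and at 24.2, 24.4 and 22.5 CPM after SN-011. In the stomach *Gbp5* stood at 9.46 to 21.1 CPM in the controls and 10.1 to 17.9 CPM after SN-011. Its groups were apart in the tongue and overlapped in the stomach. Genes of MHC class I presentation were positive in 15 of 16 cases, with a median interaction of 0.56. At an unadjusted p under 0.05, 4 had a positive interaction, beside 6.07% of all genes. Among them, *Psmb8* and *Psmb9*, subunits of the immunoproteasome, had interactions of 1.09 and 0.96, and *H2-K1*, a classical class I heavy chain, fell in the stomach by 1.19 on the log2 scale (adjusted p = 0.0367 from edgeR). *Psmb8* stood at 232 to 282 CPM in the tongue controls and 222 to 248 CPM after SN-011, whereas the stomach levels fell from 227, 144 and 110 CPM to 61.8, 64.4 and 81.2 CPM (adjusted p = 0.0161 from edgeR). *H2-Ab1*, a class II chain, had an interaction of 1.11, with 568, 510 and 379 CPM in the stomach controls and 221, 158 and 189 CPM after SN-011. The class I count was 2 without tongue control 2, tongue control 3, any one tongue SN-011 sample or stomach SN-011 1, 8 without stomach control 3, and 1 without tongue controls 2 and 3.

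Among the M7core genes with the smallest interaction p, *Slc6a4*, *Calcoco1* and *Ifi204* had negative signs. *Slc6a4*, which encodes the serotonin transporter, stood at 0.165, 0.375 and 0.418 CPM in the stomach controls and at 6.08, 1.95 and 7.98 CPM after SN-011, and within 12.1 to 18.8 CPM in all tongue samples (interaction −3.80 ± 0.66, adjusted p = 0.121 from edgeR). *Calcoco1*, an autophagy receptor of the endoplasmic reticulum, stood at 36.9, 21.7 and 17.6 CPM and at 114, 62.2 and 81.9 CPM in the stomach and within 97.8 to 118 CPM in the tongue (interaction −1.82). Both genes rose in the stomach. *Ifi204*, a PYHIN DNA sensor, differed by its tongue levels, which were 88.6, 187 and 184 CPM in the controls and 75.3, 60.7 and 51.2 CPM after SN-011, with an interaction of −1.80 that was −1.03 without tongue controls 2 and 3.

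Of 21 chemokine genes, 7 were lower in the tongue after SN-011 at an unadjusted p under 0.05, beside 5.55% of all genes. In the stomach 1 rose and 2 fell past the threshold, beside 6.48% and 5.69% of all genes. Their medians were −0.99 in the tongue and 0.51 in the stomach. At an unadjusted p under 0.05, 5 had a negative and 1 a positive interaction, beside 9.7% and 6.07% of all genes. Without stomach SN-011 2, 10 had a negative one, and 3902 of all 19411 genes had an interaction in either direction. *Ccl7*, an attractant of monocytes, stood at 22.1, 56.9 and 35.1 CPM in the tongue controls and at 6.86, 4.70 and 5.66 CPM after SN-011, and at 0.905, 4.25 and 5.49 CPM and 10.7, 1.56 and 6.09 CPM in the stomach. The tongue groups were apart and the stomach groups overlapped (interaction −3.49 ± 0.93, adjusted p = 0.15 from edgeR). A copy of *Ccl21a* on a scaffold outside the assembled chromosomes had an interaction of −6.43, but its reads may be shared with the near-identical *Ccl21* copies. Of the neutrophil markers, *Csf3r*, the receptor of granulocyte colony-stimulating factor, stood at 1.81, 2.38 and 3.13 CPM in the stomach controls and at 11.2, 5.13 and 8.34 CPM after SN-011, and at 5.47 to 9.22 CPM in the tongue. Its log2 fold change was 1.74 in the stomach (adjusted p = 0.0166 from edgeR) and −0.26 in the tongue. *S100a9* and *S100a8*, the calprotectin subunits, had interactions of −8.09 and −6.80 that rested on tongue control 3, at 200 and 162 CPM, and were −2.44 and −1.42 without tongue controls 2 and 3. The integrin gene *Itgam*, of myeloid cells, had an interaction of −2.59, with 2.63, 1.75 and 4.02 CPM in the stomach controls and 37.5, 3.83 and 21.5 CPM after SN-011, where replicate 2 lay among the controls. *Ly6c2*, of inflammatory monocytes, was opposite in sign, at 47.0, 65.8 and 46.9 CPM and at 16.1, 8.96 and 16.0 CPM in the stomach, with an interaction of 1.57. The summed macrophage markers overlapped between treatments in both tissues (543.8 to 1602 CPM in the SN-011 stomachs against 761 to 1032 CPM in the controls).

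On the positive side, cell cycle genes had the same sign. Of 24 tested, 23 had a positive interaction, and 13 of them had an unadjusted p under 0.05, beside 6.07% of all genes. The medians of the list were 0.055 in the tongue and −0.87 in the stomach. In the stomach 12 fell past the threshold and 0 rose, beside 5.69% and 6.48% of all genes. *Mcm6*, a subunit of the replicative helicase, stood at 62.9, 58.7 and 66.7 CPM in the stomach controls and at 25.6, 46.6 and 26.1 CPM after SN-011, and at 38.0, 43.0 and 46.1 CPM and 54.3, 51.5 and 65.1 CPM in the tongue. The SN-011 samples were the lower ones in the stomach and the higher ones in the tongue, without overlap (interaction 1.37 ± 0.33, adjusted p = 0.13 from edgeR). *Mcm2* of the same helicase had an interaction of 1.39, *Tyms*, which makes thymidylate, of 1.46 and *Pcna*, the sliding clamp, of 1.27. The count of 13 was 8 without tongue control 2 or without stomach control 2, and 9 without tongue controls 2 and 3, where the median interaction was 1.22.

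Subunits of oxidative phosphorylation had medians of 0.14 in the tongue and −0.67 in the stomach. Of 27, 9 had a positive interaction at an unadjusted p under 0.05 and 0 a negative one, beside 6.07% and 9.7% of all genes. *Atp5a1*, a subunit of the ATP synthase, stood at 1391, 1057 and 736 CPM in the stomach controls and at 370, 609 and 432 CPM after SN-011, and at 1591 to 1985 CPM in the tongue, where the groups overlapped (interaction 1.21). *Cox5a* of complex IV and *Sdhb* of complex II had interactions of 1.15 and 1.06. The count was 5 without tongue control 3 or stomach SN-011 1, 17 without stomach SN-011 2, 22 without stomach control 3 and 2 without tongue controls 2 and 3. Cytosolic ribosomal protein genes were positive in 22 of 22 cases with a median interaction of 0.58, but 0 had an unadjusted p under 0.05. The count was 13 without stomach control 3, 2 without stomach control 2 and 1 without stomach SN-011 2. Over all genes, in either direction, it was 3868, 2698 and 3902 there, against 2939 with all libraries. The median of the list was 0.13 without stomach control 1 and at most 0.79. Scaling by library size alone moved the median interaction of all genes to −0.15, against −0.046 with TMM scaling.

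Of 24 immediate early and heat shock genes, 4 had a negative interaction (beside 9.7% of all genes) and 1 a positive one (beside 6.07%) at an unadjusted p under 0.05, with a median of −0.19. When one library was left out, the counts were 3 to 6 negative and 1 to 3 positive. *Hspa1a* and *Hspa1b*, the inducible HSP70 genes, are near-identical copies whose reads may be divided between them. *Hspa1b* stood at 20.1, 17.2 and 11.8 CPM in the stomach controls and at 48.9, 76.3 and 58.8 CPM after SN-011, and at 31.9 to 61.0 CPM in the tongue (interaction −1.92 ± 0.40, adjusted p = 0.121 from edgeR). *Hspa1a* had an interaction of −2.69, and *Hsph1*, the HSP110 exchange factor of HSP70, of −1.73. All 3 rose in the stomach, without overlap between the groups, and overlapped in the tongue. *Hspe1*, the mitochondrial HSP10, had the opposite sign (interaction 1.13), with 197, 156 and 154 CPM in the stomach controls and 75.2, 101 and 74.5 CPM after SN-011. The heat shock element, the site of the factor HSF1, was searched for as GAA, TTC and GAA with any 2 bases between them, on both strands, and *Hspe1* held it 2 times with overlap, in capitals in the stretch below from GRCm38.p6.
*Hspe1* (chr1:55088029-55088106, plus strand): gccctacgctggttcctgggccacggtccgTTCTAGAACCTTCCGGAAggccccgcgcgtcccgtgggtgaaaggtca
*Hsph1* held the same letters downstream of its start, and the windows of *Hspa1a* and *Hspa1b* did not hold them. The share of all windows with them was 0.603%. *Ddit3*, the CHOP factor of the integrated stress response, rose in the stomach (log2 fold change 1.18, adjusted p = 0.00953 from edgeR), with 12.5, 19.4 and 16.2 CPM in the stomach controls and 33.7, 40.1 and 35.6 CPM after SN-011.

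Of 16 glucocorticoid targets and metallothioneins, 5 rose in the stomach past the threshold, beside 6.48% of all genes. In the tongue 4 were higher at an unadjusted p under 0.05, beside 2.39% of all genes. The interactions of the list were positive in 8 and negative in 8 cases, with a median of −0.076. At an unadjusted p under 0.05 they were 1 positive, *Mt1* (1.67), a metallothionein, and 3 negative, beside 6.07% and 9.7% of all genes. *Zbtb16*, a zinc finger factor induced by glucocorticoids, stood at 1.07, 0.438 and 0.940 CPM in the stomach controls and at 9.23, 7.54 and 8.53 CPM after SN-011, and at 17.2, 9.61 and 8.05 CPM and 24.9, 33.3 and 22.7 CPM in the tongue. The SN-011 samples were the higher ones in both tissues, and the interaction was −2.16. *Klf9*, another target of the glucocorticoid receptor, stood at 6.25, 8.75 and 5.64 CPM and at 22.6, 19.6 and 19.4 CPM in the stomach and overlapped in the tongue (interaction −1.94). *Pdk4*, the kinase that shuts off pyruvate oxidation, had an interaction of −1.60, and *Angptl4*, a lipoprotein lipase inhibitor, of −1.57. *Angptl4* belongs to the 22 fatty acid oxidation genes. Of these, 4 had a positive and 3 a negative interaction at an unadjusted p under 0.05, beside 6.07% and 9.7% of all genes. *Zbtb16*, *Klf9*, *Pdk4* and *Angptl4* rose in the stomach (adjusted p = 0.00414, 0.0149, 0.0103 and 0.00884 from edgeR).

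Stromal and vascular genes had negative interactions. All 24 collagen and matrix genes had a negative interaction, 9 at an unadjusted p under 0.05, beside 9.7% of all genes. The medians of the list were −0.29 in the tongue and 0.79 in the stomach. In the stomach 3 genes rose past the threshold, beside 6.48% of all genes. *Tnc*, the matrix protein tenascin C of repairing tissue, stood at 52.5, 46.6 and 66.5 CPM in the stomach controls and at 163, 71.9 and 105 CPM after SN-011 (interaction −1.60). *Timp1*, an inhibitor of matrix proteases, stood at 6.01, 3.19 and 2.14 CPM and at 37.9, 4.61 and 27.8 CPM, with SN-011 replicate 2 within the range of the controls (interaction −2.91). The collagen count was 2 without tongue control 1 or stomach SN-011 1, 3 to 5 without tongue SN-011 1 or 2 or stomach control 2, and 17 without stomach SN-011 2. The sum of the collagen and matrix genes was 2949 CPM in tongue control 1, against 1582 and 1278 CPM in tongue controls 2 and 3. All 14 endothelial markers had a negative interaction, 5 of them at an unadjusted p under 0.05, beside 9.7% of all genes. Among these, *Selp*, the P-selectin of activated endothelium, had an interaction of −5.70 at levels of at most 2.08 CPM in any sample, and *Plvap*, of fenestrated vessels, of −1.34. The endothelial count was 2 without stomach SN-011 1, 3 without any one tongue SN-011 sample, stomach control 2 or stomach SN-011 3, and 8 without tongue control 3. The endothelial sum was 948 CPM in tongue control 1, against 438 and 424 CPM in tongue controls 2 and 3. The smooth muscle genes, whose sum was 9267 to 18500 CPM in the SN-011 stomachs and 2338 to 13070 CPM in the controls, had a median of 1.07 in the stomach. Of the 12, 0 passed the threshold there, beside 6.48% of all genes as higher and 5.69% as lower. The part of muscle wall in the stromal result was not tested.

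**Figure D5:**
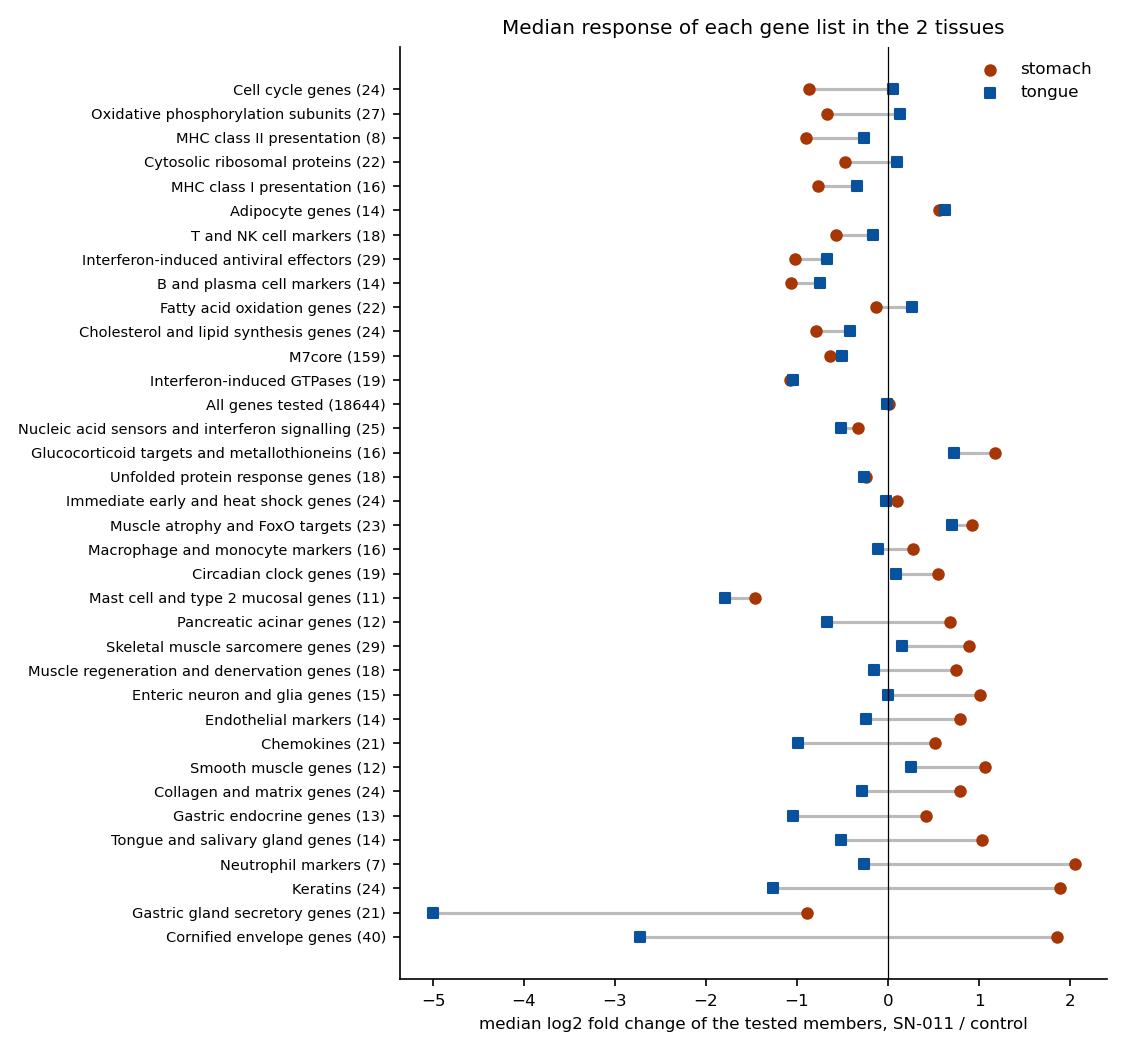
Median log2 fold change of SN-011 against control over the tested members of each gene list (number in parentheses) in the stomach (circles) and the tongue (squares), sorted by the median interaction. Cornified envelope genes, gastric gland genes and keratins lie farthest on the negative side and cell cycle genes farthest on the positive side, while M7core and the interferon-induced GTPases have circles and squares close together below zero.

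None of the genes with a positive interaction passed the threshold, so 9 of the 10 with the smallest unadjusted p, from 0.000229 to 0.000507, are named, and their adjusted p was 0.121 in each case (edgeR). In 7 of them the stomach level fell past the threshold. *Snrpe*, a core protein of the spliceosome, stood at 114, 80.5 and 91.0 CPM and at 42.0, 43.3 and 38.9 CPM in the stomach and at 54.7 to 64.3 CPM in the tongue (interaction 1.23). *Rnaseh2b*, a subunit of the RNase H2 complex that removes ribonucleotides from DNA, stood at 34.2, 22.6 and 24.4 CPM and at 4.53, 12.5 and 6.94 CPM in the stomach and at 19.6 to 31.9 CPM in the tongue (interaction 2.17). In both genes the SN-011 stomachs lay below all other samples.

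The SN-011 stomachs also lay below the control stomachs for *Erlec1*, a lectin of the endoplasmic reticulum (interaction 1.09), *Smpdl3a*, a phosphodiesterase (1.18), *Mrpl18* of the mitochondrial ribosome (1.08), *Met*, the receptor of hepatocyte growth factor (1.30), and *Emb*, a chaperone of monocarboxylate transporters (1.85). The other 2 genes differed in the tongue, at an unadjusted p of 2.21e-05 and 2.87e-05 (edgeR). *Agt*, which encodes angiotensinogen, stood at 10.4, 4.84 and 11.6 CPM in the tongue controls and at 38.8, 73.3 and 49.9 CPM after SN-011, and at 17.3 to 40.4 CPM in the stomach, where the groups overlapped (interaction 2.66 ± 0.53). *Col6a5*, a collagen VI chain, stood at 0.393, 0.327 and 0.681 CPM in the tongue controls and at 4.09, 1.83 and 6.46 CPM after SN-011, and at 34.7 to 66.4 CPM in the stomach (interaction 2.86 ± 0.61). Both were higher in all 3 SN-011 tongues than in all 3 controls, and with tongue controls 2 and 3 left out the interactions were 2.42 and 3.09.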

How the data were processed

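RNA-Seq of polyA+ RNA was analysed for 12 samples, tongue and stomach, control and SN-011. The authors deposited raw read counts, not normalized, with 54532 gene identifiers in each file. The submitters' processing notes name HISAT2, HTSeq and mm10, whereas the methods of the study name featureCounts, and the strand setting is not given in the sources used here. Reads of overlapping or near-identical genes may be lost or shared, as marked at such genes. Of the identifiers, 54495 matched GENCODE M21 (GRCm38).

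Samples were grouped by their labels. Counts were fitted with edgeR 4.0.16 (R 4.3.3; filterByExpr, minimum count 10, minimum total count 15; TMM; prior count 0.125), with one group per tissue and treatment, each contrast had a quasi-likelihood test, and Benjamini-Hochberg adjustment ran over all genes. A count of 0 allows up to 3 counts, or 0.174 to 0.206 CPM by library, for counting error only. Whether samples are separate mice is not stated, so p-values measure the spread between samples.

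Named were genes past the threshold of the interaction that reach 1 CPM on average in 1 of the groups (12 largest and 5 surest per direction, or, where none passed, the 10 of smallest p), *Cxcl10*, *Mlkl*, *Zbp1*, *Isg15* and *Ifit3*, up to 4 tested members of smallest interaction p per gene list, *Trex1*, *Xist* and *Ddx3y*, and cell type markers. Predicted genes were left out, and some items the rule selects are not reported here. *Nos3* and *Gm7993* were named after their values were seen, as were *Krt8*, *Krt19* and the *Sprr2a* genes. Members and lists were chosen with earlier results of these data known. Motifs were searched in RefSeq promoters of GRCm38.p6, from 250 bases before to 50 after the start. The alternatives were other scalings, filters and tools (DESeq2 1.42.0, limma 3.58.1), a joint fit of all 24 samples, blocks, left-out samples and each tissue fitted alone. Leaving out tongue controls 2 and 3 and fitting each tissue alone were chosen after the data were seen. Python 3.11.15 with pandas 2.3.3 and matplotlib 3.10.9 was used for tables and figures.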

Additional observations from a re-analysis of the deposited data

Results flagged for a closer look

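*Atg9b* was the gene whose response to SN-011 differed between the tissues by the test of the difference itself, with an interaction of −3.14 (log2, adjusted p = 0.027 from edgeR). *Atg9b* was 1.93 to 3.94 CPM in the control stomachs, 25.9 to 34.9 CPM in the SN-011 stomachs and 191 to 273 CPM in the tongue samples, and its partner on the other strand, *Nos3*, rose in the stomach as well.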

How the results depend on the processing

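Of 2010 alternative values for the interaction of 78 genes, 19 in 7 genes had the other sign, and 71 genes kept their sign throughout. The number of genes with an interaction (1) was 331 with no filter on low counts, 2 with at least 10 counts in every sample, 162 in the joint fit of 24 samples, 754 with the DESeq2 Wald test, 732 with edgeR's likelihood ratio test, 474 without both control samples 1, 0 to 239 without one sample and 0 without tongue controls 2 and 3. In the tongue (1) it was 2 with library size alone, 192 with no filter, 0 with at least 10 counts and with limma-voom (1027 and 1123 at an unadjusted p under 0.05), 4 in the joint fit, 267 with DESeq2, 246 with the likelihood ratio test, 577 without both control samples 1, 0 without tongue controls 2 and 3, 0 alone and 0 to 370 without one sample. In the stomach (2270) it was 4028 with DESeq2, 3758 with the likelihood ratio test, 0 alone and 244 to 3085 without one sample. Scaling by library size alone moved the stomach median of all genes from 0.0092 to 0.18 and the split of stomach calls to 1412 higher and 514 lower. The M7core median interaction was 0.081 to 0.32 over 26 alternatives. The cause was not tested.

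Signs turned without tongue controls 2 and 3 for *Muc6* (0.86), *Gkn1* (0.16), *Atp4a* (1.40), *Cxcl10* (0.90), *Isg15* (1.10) and *Ifit3* (−0.072). They also turned for *Cxcl10* without tongue control 2 (0.23), for *Zbp1* without stomach control 2 (−0.04) or stomach SN-011 2 (−0.063), for *Ifit3* without tongue control 3 (−0.019), tongue SN-011 3 (−0.038) or stomach SN-011 2 (−0.022), and for *Isg15* with limma-voom (0.23) and without tongue control 3 (0.46), tongue SN-011 3 (0.0083), stomach control 1 (0.14) or stomach SN-011 3 (0.35). With one sample left out, their ranges were −0.90 to 0.23 (*Cxcl10*), −0.063 to 0.58 (*Zbp1*), −0.038 to 0.30 (*Ifit3*) and −0.39 to 0.46 (*Isg15*). With the replicate number as a block, 0 genes had an interaction (2643 at an unadjusted p under 0.05) and *Isg15* was 0.27, and with same-numbered samples of a treatment as a block by mouse, 4 genes did (2401 at an unadjusted p under 0.05) and *Isg15* was 0.24. The labels do not say that a number marks one mouse, and deviations of same-numbered tongue and stomach samples correlated at 0.079, 0.25 and −0.12 in controls and −0.031, 0.022 and 0.0058 after SN-011, and not every sample correlated best with its own number, so the numbers were not taken to pair samples, although control 1 was the only female in both tissues, which would go with a shared mouse.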

Other observations

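Genes of cholesterol and lipid synthesis had medians of −0.42 in the tongue and −0.79 in the stomach over 24 genes. In the stomach 4 fell past the threshold, beside 5.69% of all genes. An interaction at an unadjusted p under 0.05 was found for 0 of the 24, beside 15.8% of all genes. Without tongue controls 2 and 3 the tongue median of the list was 0.29 and its median interaction 1.07. Mast cell and type 2 mucosal genes had medians of −1.79 in the tongue and −1.46 in the stomach over 11 genes. In the stomach 2 fell past the threshold, beside 5.69% of all genes. In the tongue 0 did, and 6 were lower at an unadjusted p under 0.05 (edgeR), beside 5.55% of all genes. *Kit*, the stem cell factor receptor, was higher in all 3 SN-011 stomachs (35.5 to 50.4 CPM) than in the controls (14.3 to 32.7 CPM), with an adjusted p of 0.115. The list's sums did not overlap between treatments in either tissue (62.3 to 79.2 against 19.6 to 29.1 CPM in the tongue, 194 to 279 against 87.4 to 155 CPM in the stomach). The processed pseudogene *Gm7993* was at 15.1, 16.7 and 37.6 CPM in the control tongues and at 0.301, 0.0653 and 0.0622 CPM after SN-011. In the stomach it was at 14.7, 18.7 and 56.2 CPM in the controls and at 0, 0.0650 and 0 CPM after SN-011. Its interaction of 2.80 (adjusted p = 0.432 from edgeR) is no bound at these levels.

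In the stomach, the sum of the skeletal muscle sarcomere list was 1561 to 6105 CPM in the controls and 4495 to 7719 CPM after SN-011, against 35310 to 54150 CPM in the tongue. In stomach control 3 the sum was 2357 CPM, but *Ttn*, *Neb* and *Atp2a1* of the list stood at 0.627, 4.49 and 0.470 CPM. The muscle marker *Ckm* stood at 5.75 CPM there. The sum is thus no measure of skeletal muscle in that library, and which members make it up was not tested. The sum of the pancreatic acinar list was 20850 CPM in stomach SN-011 2 and 1111 to 3579 CPM in the other stomach samples. Most of it was 1 gene, *Clps*, at 20310 CPM in stomach SN-011 2 and 996 to 3124 CPM in the others. The pancreas markers *Cpa1* and *Ctrb1* reached at most 3.05 and 11.6 CPM in any stomach sample, so the sum does not show acinar tissue.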
